A study of Mus musculus with 23 samples.

Results

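Mammary fat pads that held a lymph node were set against fat pads without a detected node. The split covers all 23 libraries, and each library comes from the fat pad beside a breast tumor of 1 mouse. The groups were chosen by the measured level of Glycam1. A library was called present where Glycam1 reached 10 CPM (its counts scaled to the same library total), and absent where it lay below. That gave 11 present and 12 absent libraries. Since this level comes from the same libraries, the values of Glycam1 and of the other lymph node genes below describe the split and are not evidence for it. Tests between present and absent libraries were read for genes of other cells, and tests by diet and by antibody use groups from the labels.

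All mice were female C57BL/6J mice, and all carried tumors. The tumors came from E0771-luciferase, a mammary carcinoma line of the mouse, of which 250000 cells in 25% matrigel were injected into mammary gland 4. Obese mice ate food with 60% of its energy from fat between 8 and 26 weeks of age. Lean mice are labelled with food of 10% of energy from fat, although the treatment text of each sample describes the high-fat food. Anti-PD-1 keeps the T cell brake PD-1 from its ligands, and IgG2a is its isotype control. Either antibody was injected at 200 µg from day 3, every 3 days, until day 21. The present libraries were 2 of 8 obese anti-PD-1, 2 of 5 obese IgG2a, 3 of 5 lean anti-PD-1 and 4 of 5 lean IgG2a libraries. The labels give no batch and do not say how each fat pad was cut. Present libraries held 49371565 to 75565878 counts and absent libraries 50119338 to 77280041 counts, so depth overlapped between the groups. Genes with at least 10 counts numbered 17405 to 18400 in present libraries and 14801 to 18294 in absent libraries.

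In the mouse, the inguinal lymph node lies inside the mammary fat pad. A lymph node gathers B cells into follicles and T cells into a surrounding zone. Lymphocytes enter it from the blood through high endothelial venules, whose cells carry sugar-coated ligands for lymphocyte homing receptors, and fibroblastic stroma cells release the chemokines that place the cells. Antigen arrives with dendritic cells through lymphatic vessels, and B cells that respond to it mature in germinal centers into plasma cells. In bulk tissue, fewer cells of a type and less RNA per cell cannot be told apart.

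The 4 genes that mark the node are expressed by different node cells. Glycam1 and Madcam1 are products of high endothelial venules that bind homing receptors of lymphocytes, among them the integrin α4β7. Ccl21a encodes a chemokine of venules and T zone stroma that draws CCR7-bearing cells, and Cd79a is a signaling chain of the B cell receptor. Their promoters are printed because all 4 were present in the same 11 libraries and near absent in the same 12. Glycam1 alone set the split. Each runs from 250 bases before to 50 bases after the RefSeq start site on GRCm38.p6, 5′ to 3′ on the gene's strand. Capitals mark matches to a form of the NF-κB pattern, GGG followed by 2 bases of any kind and then TTTCC, searched on both strands. NF-κB acts downstream of the lymphotoxin receptor, which node stroma needs to form.
Glycam1, chr15:103565032-103565331, minus strand: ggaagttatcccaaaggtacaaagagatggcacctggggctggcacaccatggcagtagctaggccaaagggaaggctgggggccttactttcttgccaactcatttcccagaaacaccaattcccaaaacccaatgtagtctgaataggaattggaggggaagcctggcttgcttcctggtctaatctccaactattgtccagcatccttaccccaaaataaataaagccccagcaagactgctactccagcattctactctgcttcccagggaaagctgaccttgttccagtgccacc
Madcam1, chr10:79664309-79664608, plus strand: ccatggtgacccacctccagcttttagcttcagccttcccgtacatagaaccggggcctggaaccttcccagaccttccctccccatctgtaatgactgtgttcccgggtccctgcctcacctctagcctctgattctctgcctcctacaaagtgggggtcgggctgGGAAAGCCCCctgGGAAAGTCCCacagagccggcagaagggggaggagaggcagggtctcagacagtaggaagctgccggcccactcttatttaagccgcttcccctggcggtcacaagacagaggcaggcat
Ccl21a, chr4:42773942-42774241, minus strand: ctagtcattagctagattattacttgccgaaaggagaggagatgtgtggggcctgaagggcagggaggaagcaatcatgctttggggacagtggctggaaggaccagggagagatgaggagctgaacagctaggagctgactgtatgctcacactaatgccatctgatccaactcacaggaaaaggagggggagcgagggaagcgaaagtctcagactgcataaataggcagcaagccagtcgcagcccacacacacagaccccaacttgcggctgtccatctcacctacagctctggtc
Cd79a, chr7:24897247-24897546, plus strand: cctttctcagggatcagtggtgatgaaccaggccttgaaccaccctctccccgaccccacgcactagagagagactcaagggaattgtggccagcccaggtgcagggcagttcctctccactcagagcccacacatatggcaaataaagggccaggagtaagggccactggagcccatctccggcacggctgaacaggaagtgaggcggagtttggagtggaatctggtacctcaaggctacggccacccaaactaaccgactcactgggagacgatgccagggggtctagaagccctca
Madcam1 held 2 matches, both on the minus strand, and the other windows held 0. The pattern occurred in 535 of 32851 promoters of the same length (1.63%). A looser form, GGG followed by 5 bases of any kind and then CC, overlaps with the first pattern and occurred in 16686 of them (50.8%). A match says only that these letters are in this window.

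The lowest, median and highest values of Glycam1 were 117, 497 and 1917 CPM in present libraries, against 0, 0.00998 and 0.498 CPM in absent libraries. Values in this order are given for each group below, always as CPM unless stated otherwise. The present library nearest the threshold was lean anti-PD-1 5 with 117 CPM, and the absent library nearest it was obese IgG2a 5 with 0.498 CPM. No library lay between them, and thresholds of 1 or 100 CPM, or Cd79a at 10 CPM in place of Glycam1, gave the same 2 groups of libraries. Madcam1 had 1.02, 3.07 and 27.3 CPM in present libraries, against 0, 0.0686 and 0.543 CPM in absent libraries. Ccl21a had 107, 626 and 1690.3 CPM in present libraries, against 0, 0.137 and 1.29 CPM in absent libraries. Cd79a had 123, 548 and 1134 CPM in present libraries, against 0.178, 0.734 and 1.57 CPM in absent libraries. All 4 markers separated the groups without overlap. Ccl21a has near-identical copies in the genome, so its own level is uncertain, although it held 89.9 to 96.5% of the summed counts of the copies in present libraries.

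**Figure D1:**
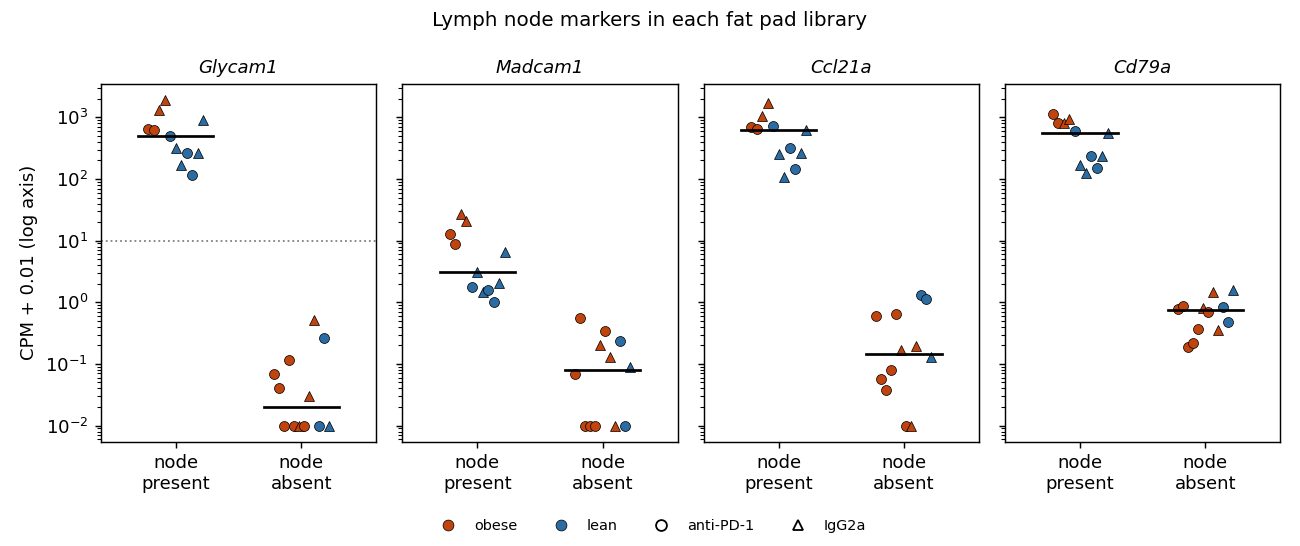
CPM plus 0.01 (log axis) of the 4 node markers in each of the 23 libraries, with present libraries left and absent libraries right in each panel. Colors give diet, symbols give antibody, short lines give medians, and the dotted line is the 10 CPM threshold of Glycam1. Glycam1 lies between 117 and 1917 CPM in present libraries and at or below 0.498 CPM in absent libraries, and no marker overlaps between the groups.

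The split ran through the whole transcriptome. Of 19882 genes tested with edgeR's quasi-likelihood test (Benjamini-Hochberg adjusted p under 0.05, the 4 diet and antibody groups as covariate), 4320 (21.7%) were called higher and 4178 (21.0%) lower in present libraries. Libraries did not overlap for 549 genes (2.76%) that lay above and 43 genes (0.216%) that lay below in present libraries. With scaling by library totals alone, the median of all genes moved to 0.12, against -0.05 with TMM scaling on the log2 scale, and the calls were 5281 higher and 3156 lower. With log2(TPM + 1) they were 3340 higher and 5086 lower. The 603 genes at least 32-fold higher in present libraries together held 0.271, 1.40 and 2.63% of the counts in present libraries, against 0.00792, 0.0138 and 0.0486% in absent libraries. The called genes are read below by 30 lists of 425 members in all, beside these shares. Ly6g, Wap, Ccl20, Flg and Lce1a1 did not pass the filter on low counts, and the other members did.

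Among 18 genes of node stroma and vessels, 15 were called higher and 1 lower, and 11 did not overlap between the groups (all 18 passed the filter on low counts). The median log2 fold change was 6.21, against -0.05 over all genes tested. Ccl19, the second CCR7 ligand, had 30.3, 73 and 245 CPM in present libraries, against 0, 0.308 and 1.07 CPM in absent libraries. Cxcl13, which draws B cells into follicles, had 34.6, 111 and 612 CPM in present libraries, against 0.0292, 0.357 and 1 CPM in absent libraries. Node chemokines were thus near 0 wherever Glycam1 was. Chst4 and Fut7 encode enzymes that finish the sugar ligands of high endothelial venules. Chst4 had 1.14, 6.96 and 15.6 CPM in present libraries and 0 counts in all 12 absent libraries, which is at least 1644-fold higher in present libraries at a floor of 3 counts over the 12 libraries. Fut7 had 1.67, 8.33 and 28.5 CPM in present libraries, against 0, 0.289 and 0.98 CPM in absent libraries.

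Genes of follicular dendritic cells and B cells that bind complement or IgE showed the same split. Cr2, complement receptor 2, had 30.2, 140.2 and 362 CPM in present libraries, against 0, 0.0513 and 0.718 CPM in absent libraries, and Fcer2a, the low-affinity IgE receptor, had 28.9 to 298 CPM in present libraries, against 0 to 0.22 CPM in absent libraries. Bst1, an ectoenzyme of node stroma, had 7.56, 31.8 and 56.8 CPM in present libraries, against 0.0963, 2.41 and 8.54 CPM in absent libraries, and Tnfsf11, the cytokine RANKL of node organizer cells, had 0.82, 4.03 and 24.1 CPM in present libraries, against 0, 0.367 and 3.5 CPM in absent libraries. Marco, a scavenger receptor of node sinus macrophages, had 12.1, 100.4 and 378 CPM in present libraries, against 0.161, 1.89 and 4.06 CPM in absent libraries and did not overlap, while Bst1 and Tnfsf11 did. Members of the same list that fat also expresses did otherwise. Ltbr, the lymphotoxin receptor, fell in present libraries, with 34.8, 51.4 and 73.5 CPM against 72.2, 100.2 and 115 CPM in absent libraries (log2 fold change -1.06 ± 0.16 (SE), adjusted p = 2.03e-05, edgeR). Enpp2, the enzyme autotaxin, had 179, 251 and 399 CPM in present libraries, against 75.6, 259.7 and 317 CPM in absent libraries (adjusted p = 0.821, edgeR), and Cd34 had 39.1 to 63.3 CPM in present libraries, against 28 to 83.1 CPM in absent libraries (adjusted p = 0.195, edgeR). Pdpn, podoplanin of T zone stroma, had 3.95, 7.16 and 10 CPM in present libraries, against 2.05, 4.35 and 9.11 CPM in absent libraries (log2 fold change 0.60). Lyve1, a lymphatic hyaluronan receptor, had 1.33, 8.35 and 57.9 CPM in present libraries, against 1.37, 3.45 and 15.7 CPM in absent libraries (log2 fold change 1.5). Pdpn and Lyve1 are also genes of node stroma and lymphatics, so their values describe the split and no test of them is read. Pdpn was called in only 11 of 23 fits with 1 library left out. Without obese anti-PD-1 3 Lyve1 was at 0.72 and was not called. Among 9 lymphatic endothelium genes 4 were called higher and 0 lower, namely Ccl21b, a near-identical copy of Ccl21a, Stab2, a hyaluronan receptor of sinuses (3.14), Mmrn1 (1.75, but -0.25 in lean libraries alone) and Itga2b (1.90, all log2 fold change). Flt4, the receptor of lymphatic growth factors, had 5.81 to 18 CPM in present libraries, against 6.53 to 30.9 CPM in absent libraries (adjusted p = 0.11, edgeR).

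B cell genes had the highest median log2 fold change of the lists. Of 15 members, 14 were called higher and 1 lower, with a median log2 fold change of 8.21, and 13 did not overlap. Summed over the list, B cell genes had 577, 2449 and 5816 CPM in present libraries, against 80.7, 201 and 291 CPM in absent libraries. Cd79b, the partner of Cd79a, had 59.6, 292 and 653 CPM in present libraries, against 0.0642, 1.2 and 2.22 CPM in absent libraries. Pax5, the transcription factor of B cell identity, had 28.8, 164 and 348 CPM in present libraries, against 0.0518, 0.304 and 24.4 CPM in absent libraries. Pax5 reached its highest absent value still below every present library. Ebf1 is shared with fat cell precursors. It was the member that fell, with 64.8, 86.2 and 118 CPM in present libraries, against 75, 184 and 274 CPM in absent libraries (log2 fold change -0.73 ± 0.19 (SE), adjusted p = 0.00426, edgeR).

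Germinal centers are the sites where B cells edit their antibodies. Of 11 genes tested, 8 were called higher and 0 lower (median log2 fold change 2.07). Rgs13, a brake on chemokine signaling in germinal center B cells, had 0.79, 2.69 and 11.2 CPM in present libraries and 0 counts in all 12 absent libraries (at least 965-fold higher). Gcsam had 1.93 to 23.5 CPM in present libraries, against 0 to 1.02 CPM in absent libraries. Il21, the T cell cytokine that drives germinal centers, was also without counts in the absent libraries (at least 382-fold higher). Bcl6, whose product drives the germinal center program, was not called and overlapped, with 34.2, 49.5 and 67.6 CPM in present libraries, against 32.7, 54.8 and 83.2 CPM in absent libraries (log2 fold change -0.32 ± 0.16 (SE), adjusted p = 0.106, edgeR).

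Plasma cells secrete antibody, and fat also holds some. Of 17 plasma cell genes, 11 were called higher and 2 lower (median log2 fold change 2.38), and 4 did not overlap. Ighd, the constant region of IgD on naive B cells, had 91.1, 376 and 1214 CPM in present libraries, against 0.273, 1.11 and 3.93 CPM in absent libraries. The IgG constant regions Ighg1 and Ighg2c had 3.74 to 409 and 7.16 to 157 CPM in present libraries, against 0 to 0.632 and 0 to 1.66 CPM in absent libraries. Mzb1, a chaperone of antibody assembly, had 10.4, 57.6 and 119 CPM in present libraries, against 0, 0.448 and 3.57 CPM in absent libraries. Igkc, the κ light chain, overlapped between the groups, with 158, 755 and 1346 CPM in present libraries, against 1.08, 15.2 and 298 CPM in absent libraries, and so did Ighm, the IgM heavy chain, with 279, 1033 and 1919.8 CPM in present libraries, against 38.4, 251 and 1123 CPM in absent libraries. Jchain, which joins IgM and IgA units, had 14.5 to 216 CPM in present libraries, against 0.16 to 32.9 CPM in absent libraries (log2 fold change 2.66, called in 16 of 23 fits with 1 library left out). The values of Jchain describe the split, and no test of them is read. Sdc1, CD138 of plasma cells and of epithelium, fell, with 20.4, 26 and 38.9 CPM in present libraries, against 30.7, 42.3 and 271 CPM in absent libraries (log2 fold change -1.18 ± 0.30 (SE), adjusted p = 0.00271, edgeR). Xbp1, the factor of secretory cells, had 141 to 254 CPM in present libraries, against 176 to 278 CPM in absent libraries (log2 fold change -0.39 ± 0.13 (SE), adjusted p = 0.0236, edgeR, called in 19 of 23 fits with 1 library left out). The constant regions resemble each other, and how reads were shared among them was not tested.

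Ighm kept high levels in some absent libraries. Obese anti-PD-1 6 and 7, both absent, had 760.3 and 644 CPM of Ighm with 1.08 and 1.44 CPM of Igkc. Obese anti-PD-1 5, also absent, had 1123 CPM of Ighm with 298 CPM of Igkc. A high level of Ighm thus came with low and with high Igkc in absent libraries. The deposited transcripts of Ighm also differed between the groups. One annotated transcript has 6 exons, of which the last 2 encode the membrane anchor of surface IgM, and the other has 4 exons and ends in the secreted form. The 6-exon transcript held 59.4, 78.2 and 89.3% of the Ighm estimated counts in present libraries, against 7.94, 21.3 and 35.6% in absent libraries, without overlap. These transcripts share their other exons, so the split between them is an estimate. This feature was chosen after its values were seen.

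**Figure D2:**
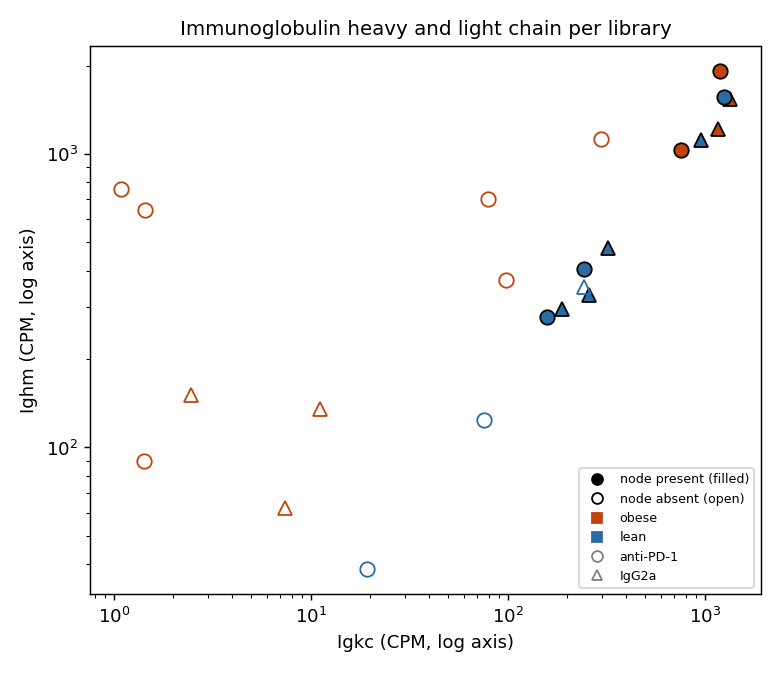
Ighm against Igkc in each library (CPM, both axes log), with present libraries filled and absent libraries open, diet as color and antibody as symbol. Present libraries have Igkc of 158 CPM or more with Ighm of 279 CPM or more, while obese anti-PD-1 6 and 7 have Ighm of 760 and 644 CPM with Igkc of 1.08 and 1.44 CPM.

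All 20 T cell genes were called higher, none was called lower, and 19 did not overlap (median log2 fold change 6.10). Summed over the list, they had 370.4, 1543 and 2698 CPM in present libraries, against 21.2, 35.9 and 45.5 CPM in absent libraries. Cd4 and Cd8a, the coreceptors of helper and killer T cells, had 13.7, 64.6 and 112 CPM and 24.1, 107 and 186 CPM in present libraries, against 0.0321, 1.01 and 2.2 CPM and 0.344, 0.812 and 2.19 CPM in absent libraries. Both lineages were therefore seen in the same 11 libraries. Trbc2, a T cell receptor constant region, had 34.2 to 267 CPM in present libraries, against 0 to 2.81 CPM in absent libraries. Tcf7, the factor of naive and memory T cells, had 30.3 to 254 CPM in present libraries, against 0.455 to 5.18 CPM in absent libraries, and Lck, the kinase of the receptor, had 30.3 to 208 CPM in present libraries, against 0 to 3.37 CPM in absent libraries. All 10 genes of regulatory and follicular helper T cells were called higher (median 5.27). Foxp3, the factor of regulatory T cells, had 1.42, 9.82 and 32.8 CPM in present libraries, against 0.0285, 0.417 and 1.51 CPM in absent libraries. Icos, a costimulatory receptor, had 4.51 to 119 CPM in present libraries, against 0 to 1.6 CPM in absent libraries, Slamf6 had 7.32 to 87.7 CPM in present libraries, against 0 to 1.5 CPM in absent libraries, and Il2ra, the interleukin 2 receptor, had 5.16 to 77.9 CPM in present libraries, against 1.16 to 7.81 CPM in absent libraries.

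Cytotoxic lymphocyte genes split less completely. Of 14, 10 were called higher and 0 lower (median 2.99), and 5 did not overlap. Ccl5, a chemokine of activated T and NK cells, had 37, 127 and 238 CPM in present libraries, against 0.49, 3.4 and 9.93 CPM in absent libraries. Nkg7, a granule protein, had 9.88 to 81 CPM in present libraries, against 0 to 5.07 CPM in absent libraries, and Cst7 had 3 to 34.1 CPM in present libraries, against 0 to 1.38 CPM in absent libraries. Gzma, granzyme A, was not called, with 2.07, 2.59 and 7.77 CPM in present libraries, against 0, 1.56 and 2.89 CPM in absent libraries (log2 fold change 0.93 ± 0.52 (SE), adjusted p = 0.164, edgeR). Of 11 checkpoint genes, 8 were called higher and 1 lower (median 2.14). Pdcd1 encodes PD-1, the receptor that the antibody binds, and had 1.46, 5.8 and 12.1 CPM in present libraries, against 0, 0.0636 and 1.08 CPM in absent libraries. Btla, an inhibitory receptor of B and T cells, had 16.9, 99.2 and 385 CPM in present libraries, against 0, 0.858 and 1.92 CPM in absent libraries. The PD-1 ligand Cd274 was not called and overlapped, with 22.7, 27.9 and 65.2 CPM in present libraries, against 16.6, 25.9 and 41 CPM in absent libraries (log2 fold change 0.26 ± 0.14 (SE), adjusted p = 0.134, edgeR), nor was Cd200 (adjusted p = 0.08, edgeR). The receptor thus separated the groups, and the ligand did not. Vsir had 85.8 to 220.2 CPM in present libraries, against 95.3 to 367 CPM in absent libraries (log2 fold change -0.44 ± 0.17 (SE), adjusted p = 0.0401, edgeR, called in 19 of 23 fits with 1 library left out, and -0.28 without obese anti-PD-1 3).

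Genes of antigen presentation were higher in present libraries too. Of 13 dendritic cell genes, 10 were called higher and 0 lower (median 3.09). Ccl22, a chemokine of mature dendritic cells, had 22, 72.1 and 241 CPM in present libraries, against 0.0776, 1.62 and 2.63 CPM in absent libraries. Fscn1, the actin bundler of their processes, had 125, 288 and 931 CPM in present libraries, against 36.1, 90.5 and 218 CPM in absent libraries. Clec10a, a lectin that fat macrophages share, was not called, with 27.6 to 78.5 CPM in present libraries, against 5.7 to 46.7 CPM in absent libraries (adjusted p = 0.0916, edgeR). All 10 MHC class II genes were called higher (median 3.23) and 9 did not overlap. Cd74, the invariant chain, had 1213, 3891 and 6832 CPM in present libraries, against 222, 398 and 580.5 CPM in absent libraries. H2-Ab1 had 446 to 1891 CPM in present libraries, against 84.1 to 205 CPM in absent libraries, and H2-Aa had 386 to 2313 CPM in present libraries, against 59.8 to 192 CPM in absent libraries. H2-Ob, a chaperone chain of B cells, and H2-DMb2, a chain of the complex that loads peptides, had 31.1, 148 and 459 CPM and 48.5, 210.5 and 411 CPM in present libraries, against 0.035, 0.526 and 1.48 CPM and 0.0375, 0.803 and 2.25 CPM in absent libraries. Cd74, H2-Ab1 and H2-Aa were thus counted in every library, while H2-Ob and H2-DMb2 were near 0 in absent libraries.

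MHC class I is made by nearly all cells and showed smaller differences. Of 10 genes, 7 were called higher and 0 lower (median 0.78), and none was without overlap. H2-K1 rose, with 2039, 2711 and 3591 CPM in present libraries, against 867, 1304 and 2251 CPM in absent libraries (log2 fold change 0.72 ± 0.18 (SE), adjusted p = 0.00261, edgeR). In lean libraries alone H2-K1 was at 0.054 and was not called (adjusted p = 0.893, edgeR). H2-D1 had a log2 fold change of 0.22 ± 0.18 (SE), adjusted p = 0.351 and B2m, the light chain, of 0.11 ± 0.14 (SE), adjusted p = 0.533 (both edgeR). The H2 genes resemble each other, and how reads were shared among them was not tested. Of 16 interferon-induced genes, 4 were called higher and 1 lower (median 0.17, but -0.33 in lean libraries alone). The 4 higher calls are close to the 21.7% of all genes called higher, and no result about the list is read from them. Among the 4 were Bst2, the antiviral GTPase Mx1 (log2 fold change 2.47) and the nucleic acid sensor Zbp1 (1.09), and the 1 was the antiviral enzyme Rsad2 (-1.06, adjusted p = 0.0141, edgeR). Irf7 was not called (adjusted p = 0.407, edgeR), and Bst2 had 65.5 to 268 CPM in present libraries, against 16.1 to 162 CPM in absent libraries (log2 fold change 0.69 ± 0.27 (SE), adjusted p = 0.0442, edgeR, called in 11 of 23 fits with 1 library left out).

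Of 15 macrophage genes, 5 were called higher and 4 lower (median 0.35), against 21.7% and 21.0% of all genes tested. These counts are close to that background, and no result about the list is read from them. In lean libraries alone 2 were called higher and 0 lower. Timd4, a receptor for dying cells on resident macrophages, had 10.3, 50.9 and 136 CPM in present libraries, against 0, 0.21 and 2.22 CPM in absent libraries, and Cd5l, a secreted macrophage protein, had 0.605 to 87.6 CPM in present libraries, against 0 to 14.2 CPM in absent libraries. Lyz2, lysozyme, rose, with 206, 699.5 and 2026 CPM in present libraries, against 95.7, 164 and 275 CPM in absent libraries (log2 fold change 2.28 ± 0.27 (SE), adjusted p = 7.32e-07, edgeR), as did C1qa (log2 fold change 0.83 ± 0.19 (SE), adjusted p = 0.00125, edgeR). In lean libraries alone C1qa was at 0.20 and was not called (adjusted p = 0.630, edgeR). The other complement chain C1qc was called over all libraries too (log2 fold change 0.61), and C1qb was not (adjusted p = 0.101, edgeR). Adgre1, which encodes F4/80, fell, with 8.27, 13.3 and 21.6 CPM in present libraries, against 14.1, 27.2 and 63.1 CPM in absent libraries (log2 fold change -1.19 ± 0.26 (SE), adjusted p = 0.000882, edgeR). Cd163 and Mrc1, scavenger receptors of tissue macrophages, fell too, by 1.42 and 0.82 on the log2 scale, as did the receptor kinase Mertk, by 0.95, which was called in 19 of 23 fits with 1 library left out and was 0.20 in lean libraries alone. Cd163 had 3.78, 9.9 and 17.5 CPM in present libraries, against 13.2, 23.9 and 40 CPM in absent libraries. Of 12 genes of lipid-associated macrophages, which clear fat from dying fat cells, 0 were called higher and 8 lower (median -0.88). In obese libraries alone 6 were called lower, and in lean libraries alone 0 were (median -0.63). Gpnmb had 8.16, 11.5 and 26.8 CPM in present libraries, against 8.06, 59.3 and 152 CPM in absent libraries (log2 fold change -1.71 ± 0.34 (SE), adjusted p = 0.000368, edgeR). Lpl, Cd36 and Plin2 of this list are also genes of fat cells. Lpl, lipoprotein lipase, had 1118, 3707 and 7544 CPM in present libraries, against 5280.0, 9673 and 29385 CPM in absent libraries (log2 fold change -1.93 ± 0.43 (SE), adjusted p = 0.00102, edgeR), Cd36, a fatty acid transporter, -1.47 ± 0.29 (SE), adjusted p = 0.000352 and Plin2 -0.87 ± 0.19 (SE), adjusted p = 0.000967 on the same scale.

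Of 10 neutrophil genes tested, 2 were called higher and 0 lower (median 1.10), against 21.7% and 21.0% of all genes tested. The 2 higher calls are close to that background, and no result about the list is read from them. Cxcr2, the receptor of neutrophil chemokines, had 0.423 to 29.4 CPM in present libraries, against 0 to 2.87 CPM in absent libraries (log2 fold change 4.22 ± 0.86 (SE), adjusted p = 0.000469, edgeR). S100a8 and S100a9, calcium-binding proteins of neutrophils, had 0.0343 to 40.3 and 0.275 to 57.8 CPM in present libraries, against 0 to 22.2 and 0 to 27.1 CPM in absent libraries, and neither was called. The other called gene was Camp, the antimicrobial peptide of neutrophil granules (log2 fold change 3.31 ± 1.28 (SE), adjusted p = 0.0436, edgeR), which was called in 11 of the 17 fits with 1 library left out that tested it. Of 20 lymphoid chemokines and cytokines, 15 were called higher and 0 lower (median 2.17). Ltb, lymphotoxin β, which lymphocytes present to node stroma, had 68.5, 329 and 652 CPM in present libraries, against 0.14, 1.04 and 2.06 CPM in absent libraries. S1pr1, the receptor for exit from the node, had 107 to 201 CPM in present libraries, against 63 to 150.4 CPM in absent libraries (log2 fold change 0.51). Its values describe the split, and no test of them is read. Cxcl12, which fat stroma also makes, was not called (adjusted p = 0.107, edgeR). Of 18 proliferation genes, 15 were called higher and 0 lower (median 1.90). Mki67, a protein of dividing cells, had 15.8, 59 and 135 CPM in present libraries, against 1.81, 11 and 97.3 CPM in absent libraries (log2 fold change 2.33 ± 0.48 (SE), adjusted p = 0.000569, edgeR), and Pcna had 53.8 to 208 CPM in present libraries, against 23.3 to 106 CPM in absent libraries. Top2a had 11.3 to 97.4 CPM in present libraries, against 2.11 to 405 CPM in absent libraries (log2 fold change 1.93 ± 0.61 (SE), adjusted p = 0.0138, edgeR, not called without obese anti-PD-1 3). In absent libraries the summed proliferation list was highest in obese IgG2a 5 (1519 CPM) and obese IgG2a 2 (1065 CPM), above every present library. The tumor-like list, 10 genes such as Cd44 and Mmp3, was also highest there, at 1083 and 664 CPM, and had 82.1 to 299 CPM in present libraries. Of that list, 2 genes were called higher and 0 lower (median -0.69), the adhesion receptor Cd44 (log2 fold change 0.77 ± 0.31 (SE), adjusted p = 0.0488, called in 13 of 23 fits with 1 library left out) and the cystine transporter Slc7a11 (5.01 ± 0.63 (SE), adjusted p = 1.91e-06, both edgeR). The 2 of 10 tumor-like genes called higher are close to the 21.7% of all genes, and no result about that list is read from them. The part of tumor cells in the proliferation and tumor-like values was not tested.

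**Figure D3:**
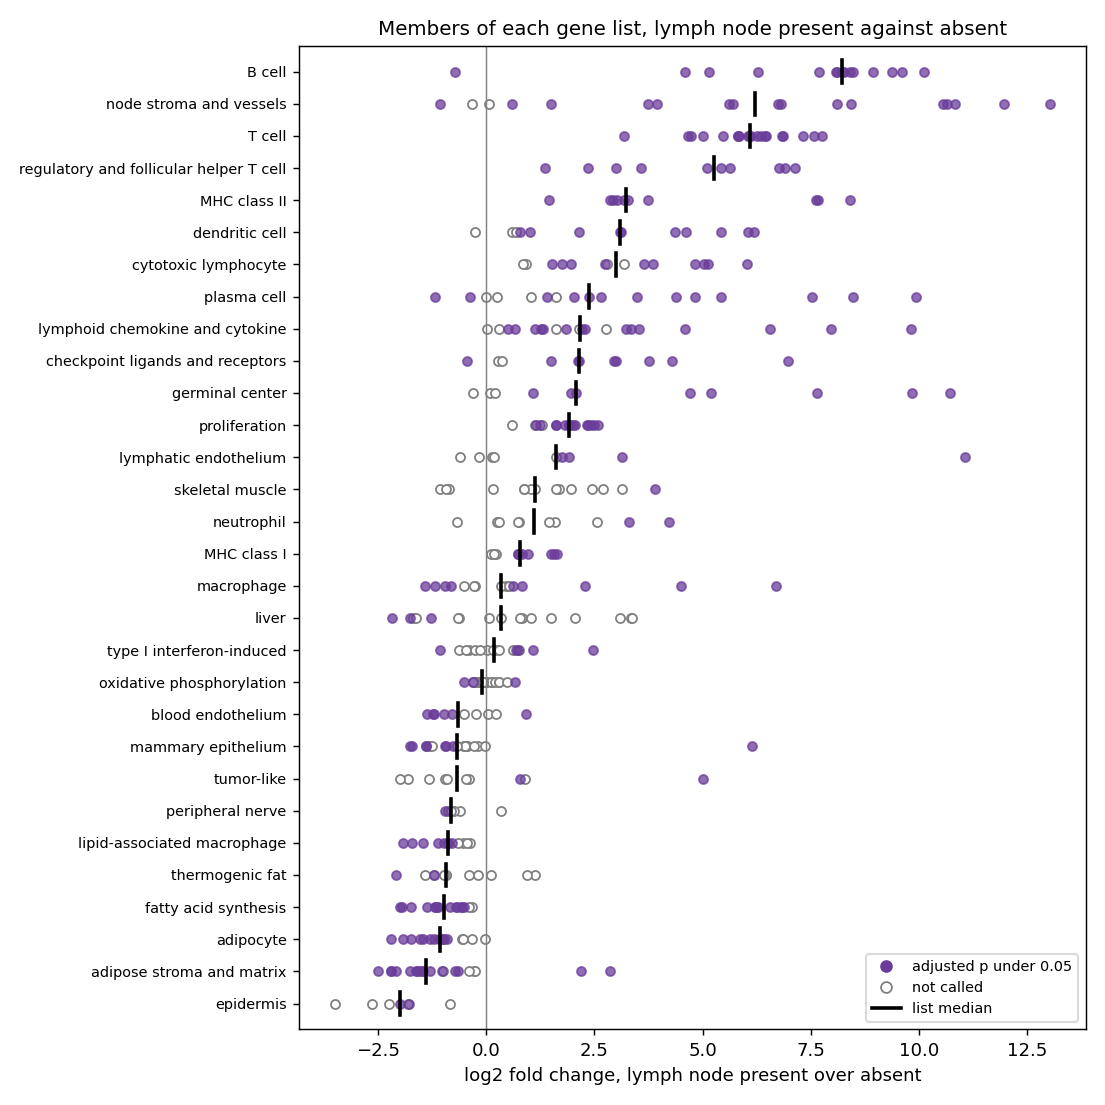
Log2 fold change of present over absent libraries for each member of the 30 lists (points; filled where the edgeR adjusted p is under 0.05), with list medians as bars, ordered by median. B cell (median 8.21), node stroma (6.21) and T cell (6.10) lists lie highest, and most members of the adipocyte (-1.07) and adipose matrix (-1.38) lists lie below 0.

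Fat cell genes were lower where a node was present. Of 16 adipocyte genes, 0 were called higher and 12 lower, with a median log2 fold change of -1.07. Summed over the list, they had 9279, 24240.0 and 50719 CPM in present libraries, against 16545, 53878 and 59975 CPM in absent libraries, and the groups overlapped. Lep, which encodes the satiety hormone leptin, had 74.3, 210.4 and 963 CPM in present libraries, against 66.3, 3053 and 6514 CPM in absent libraries (log2 fold change -2.21 ± 0.41 (SE), adjusted p = 0.000177, edgeR). Adipoq, the hormone adiponectin, had 392, 1230.0 and 2741 CPM in present libraries, against 996, 2348 and 3319.9 CPM in absent libraries (log2 fold change -1.09 ± 0.30 (SE), adjusted p = 0.00531, edgeR). Plin1, the coat of the lipid droplet, had 409, 809 and 1358 CPM in present libraries, against 628, 2079 and 3034 CPM in absent libraries (log2 fold change -1.45 ± 0.30 (SE), adjusted p = 0.00055, edgeR). The fall was not shared by all members. Fabp4, a fatty acid carrier, had a log2 fold change of -0.54 ± 0.32 (SE), adjusted p = 0.178 and Cfd, the protease adipsin, of -0.02 ± 0.42 (SE), adjusted p = 0.976 (both edgeR). Within the 11 present libraries, the Spearman correlation of the adipocyte sum with the B cell sum was -0.95. Both sums share the library total, and obese libraries hold the highest B cell sums.

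Fatty acid synthesis genes went the same way. Of 16, 0 were called higher and 14 lower (median -0.98). Scd1, the desaturase, had 719, 25393 and 48922 CPM in present libraries, against 5789, 21756 and 50922 CPM in absent libraries (log2 fold change -2.0 ± 0.47 (SE), adjusted p = 0.00171, edgeR), and the groups overlapped widely. Scd1 had 719, 2685 and 2935 CPM in obese present libraries, 5789, 17164 and 36794 CPM in obese absent libraries, 24713, 36968 and 48922 CPM in lean present libraries and 44071, 50423 and 50922 CPM in lean absent libraries. Within obese mice alone the log2 fold change was -2.90, and within lean mice alone it was -0.61 (adjusted p = 0.224, edgeR), where present and absent libraries overlapped. Fasn, fatty acid synthase, had a log2 fold change of -1.73 ± 0.51 (SE), adjusted p = 0.00883 (edgeR) and 0.73 without the diet and antibody covariate. Thrsp, a lipogenic cofactor, was not called (adjusted p = 0.446, edgeR). Of 12 thermogenic genes, 0 were called higher and 2 lower (median -0.93, with -1.49 in obese and 0.075 in lean libraries alone). The 2 lower calls are close to the 21.0% of all genes called lower, and no result about the list is read from them. The 2 were Prdm16, a factor of beige fat cells (log2 fold change -1.20 ± 0.27 (SE), adjusted p = 0.00112, edgeR), and Ppara, a factor of fat burning (log2 fold change -2.09 ± 0.63 (SE), adjusted p = 0.0104, edgeR). Ucp1, the heat-making uncoupler, had 0, 33 and 533 CPM in present libraries, against 0, 0.536 and 215 CPM in absent libraries and was not called, nor were Cidea and Cox8b. Of 22 oxidative phosphorylation genes, 1 was called higher and 2 lower (median -0.10, but 0.14 in obese libraries alone and 0.052 scaled by library totals alone). The first was Cox5a of complex IV (0.66 ± 0.25 (SE), adjusted p = 0.0347), and the others were Ndufs1 of complex I (-0.31 ± 0.12 (SE), adjusted p = 0.0405) and Atp5b of the ATP synthase (-0.53 ± 0.16 (SE), adjusted p = 0.00899, all log2 fold change, edgeR). Cox5a was called in 17 and Ndufs1 in 10 of 23 fits with 1 library left out. Without the diet and antibody covariate Ndufs1 was at 0.20 and Atp5b at 0.022.

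Genes of the adipose matrix fell most among the fat lists. Of 20, 2 were called higher and 14 lower (median -1.38), and the sums were 1684, 2552 and 3439.7 CPM in present libraries, against 2705, 7528 and 9694 CPM in absent libraries. Col1a1 and Col3a1 encode the fibrillar collagens. Col1a1 had 66.4, 156 and 232 CPM in present libraries, against 177, 659 and 1397 CPM in absent libraries (log2 fold change -2.08 ± 0.39 (SE), adjusted p = 0.000202, edgeR), and Col3a1 had 77, 338 and 531 CPM in present libraries, against 224, 867 and 1579 CPM in absent libraries (log2 fold change -2.19 ± 0.45 (SE), adjusted p = 0.000462, edgeR). Sparc, a collagen-binding protein, had 349.5, 736 and 1216 CPM in present libraries, against 775, 3238 and 5193 CPM in absent libraries (log2 fold change -1.76 ± 0.35 (SE), adjusted p = 0.000384, edgeR). The 2 members that rose are also genes of T cells, so their values describe the split and no test of them is read. Thy1 had 59.6, 156 and 357 CPM in present libraries, against 9.41, 26.8 and 35.5 CPM in absent libraries (log2 fold change 2.87), without overlap. Dpp4, a peptidase also known as CD26, had 8.06, 28.8 and 87.8 CPM in present libraries, against 1.99, 7.9 and 28.1 CPM in absent libraries (log2 fold change 2.19).

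Of 10 blood endothelium genes, 1 was called higher and 5 lower (median -0.65). In obese libraries alone 1 was called higher and 5 lower, and in lean libraries alone 0 in either direction (median -0.26). Cdh5, the junction protein VE-cadherin, fell, with 57.1, 112 and 288 CPM in present libraries, against 89.2, 242 and 377 CPM in absent libraries (log2 fold change -1.24 ± 0.35 (SE), adjusted p = 0.00682, edgeR), Plvap, of fenestrated vessels and node sinuses, rose (log2 fold change 0.91 ± 0.22 (SE), adjusted p = 0.00185, edgeR), and Pecam1 was not called (log2 fold change 0.04 ± 0.18 (SE), adjusted p = 0.879, edgeR). The other 4 genes called lower were the receptors Kdr (-0.98), Tek (-1.37) and Tie1 (-0.79) and the clotting protein gene Vwf (-1.21, adjusted p = 0.000709 to 0.00553, edgeR). Of 19 mammary epithelium genes, 1 was called higher and 7 lower (median -0.68). Krt5 and Krt14, keratins of basal cells, fell (log2 fold change -1.77 ± 0.45 (SE), adjusted p = 0.00307 and -1.38 ± 0.40 (SE), adjusted p = 0.00743, edgeR), while the luminal keratins Krt8, Krt18 and Krt19 were not called (adjusted p = 0.205, 0.261 and 0.173, edgeR). The member called higher was the milk protein gene Csn2, at 0.162 to 4.06 CPM in present libraries, against 0 to 0.509 CPM in absent libraries. Of 7 nerve genes (median -0.83, but 0.28 in lean libraries alone), 0 were called higher and 1 lower, Pmp22 of myelin (log2 fold change -0.96 ± 0.22 (SE), adjusted p = 0.00146, edgeR), and of 7 epidermis genes 0 were called higher and 2 lower, the secreted protein gene Sbsn (log2 fold change -1.78 ± 0.26 (SE), adjusted p = 1.28e-05, edgeR) and the desmosomal cadherin gene Dsg1a (log2 fold change -1.99 ± 0.67 (SE), adjusted p = 0.0199, edgeR, not called without lean IgG2a 5, nor without lean anti-PD-1 4, where it was -1.22). The nerve and epidermis counts are close to the 21.0% of all genes called lower, and no result about these lists is read from them.

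**Figure D4:**
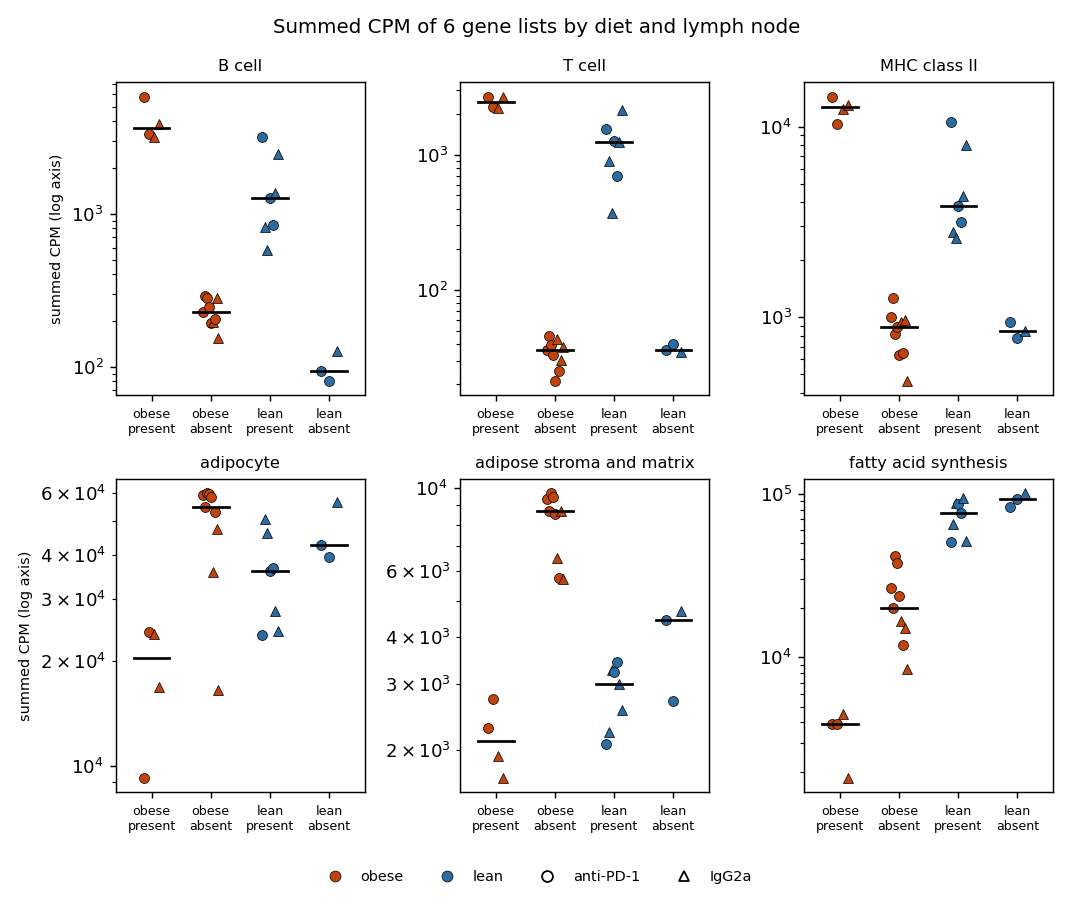
Summed CPM (log axis) of 6 gene lists in each library, by diet and node status, with medians as lines, diet as color and antibody as symbol. B cell, T cell and class II sums of present libraries lie above all absent libraries, while adipocyte and matrix sums overlap between the groups over the 2 diets together.

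Libraries also differed in genes listed as liver or muscle genes. The summed liver list had 359 to 4948 CPM in present libraries and 746 to 15269 CPM in absent libraries, with the highest value in obese IgG2a 5, where Alb, serum albumin, reached 6931 CPM. Of its 17 genes, 0 were called higher and 3 lower, against 21.7% and 21.0% of all genes tested. The 3 lower calls are close to that background, and no result about the list is read from them. The list median was 0.34 over all libraries, but -0.78 in obese and -0.67 in lean libraries alone, and -1.12 to 1.29 with 1 library left out. The 3 genes called lower were Trf, Fgg and Cyp2e1. Trf, transferrin, had a log2 fold change of -1.27 ± 0.29 (SE), adjusted p = 0.00109 (edgeR). Fgg, a fibrinogen chain, had -2.19 ± 0.74 (SE), adjusted p = 0.0203 (edgeR, not called without obese IgG2a 3, and -1.15 without obese IgG2a 5), and Cyp2e1, a cytochrome P450, had -1.76 ± 0.57 (SE), adjusted p = 0.016 (edgeR, not called without obese anti-PD-1 4 or obese IgG2a 5, at -1.07 without the second of these, and at 0.23 without the diet and antibody covariate). The muscle sum reached 3633 CPM in lean IgG2a 1 (present) and 3567 CPM in lean anti-PD-1 2 (absent). Of 15 muscle genes, 1 was called higher and 0 lower (median 1.12, but -0.98 in lean libraries alone). This was Myh7, a myosin of slow fibers (log2 fold change 3.89 ± 1.54 (SE), adjusted p = 0.0448, edgeR), whose call was lost without any 1 of 16 libraries and whose direction turned in lean libraries alone (-2.64). Acta1, Myh4 and Atp2a1, of muscle filaments and the calcium pump, were not called. The parts of liver and muscle RNA in the results above were not tested.

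Genes outside the lists gave differences as large as the node genes themselves. Taking genes called, in no list and with a mean of at least 4 CPM in the group where they were higher, the largest rises were in genes of node lymphocytes and in genes known from other tissues. Fcmr, the Fc receptor for IgM on B cells, had 38.4, 170.5 and 397 CPM in present libraries, against 0, 0.104 and 0.623 CPM in absent libraries. Apol7c, an apolipoprotein L of dendritic cells, had 20.5, 67.5 and 333 CPM in present libraries, against 0, 0.157 and 0.455 CPM in absent libraries. Ffar1, a receptor for long fatty acids known from pancreatic islets, had 2.26, 13 and 44 CPM in present libraries, against 0, 0 and 0.12 CPM in absent libraries. Insm1, a transcription factor known from endocrine cells, had 1.84, 9.6 and 23.4 CPM in present libraries, against 0, 0 and 0.295 CPM in absent libraries. Pcdh15, a cadherin known from inner ear hair cells, had 1.48 to 28 CPM in present libraries, against 0 to 0.169 CPM in absent libraries. Bfsp2, a filament protein known from the eye lens, had 2.36 to 18.8 CPM in present libraries, against 0 to 0.101 CPM in absent libraries. Tmem108, Tspan10 and Gal3st2, the last with near-identical copies, had log2 fold changes of 9.29, 9.03 and 10.51. Oit1 had 0.95, 3.61 and 13.1 CPM in present libraries and 0 counts in all 12 absent libraries (at least 1221-fold higher). Every one of these 10 genes was at most 0.623 CPM in any absent library.

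The largest falls by the same rule were of genes with low counts in present libraries. Nav3, a cytoskeletal protein, had 0.0319, 1.44 and 3.28 CPM in present libraries, against 0.947, 18 and 34.9 CPM in absent libraries (log2 fold change -3.34 ± 0.71 (SE), adjusted p = 0.000719, edgeR). Unc79, a part of a sodium leak channel complex, had 0, 0.275 and 2.66 CPM in present libraries, against 0.191, 15.6 and 30.2 CPM in absent libraries (log2 fold change -3.34 ± 0.71 (SE), adjusted p = 0.000687, edgeR), and Ptchd4 had 0, 0.168 and 3.05 CPM in present libraries, against 0, 11.7 and 31.2 CPM in absent libraries (log2 fold change -3.18 ± 0.64 (SE), adjusted p = 0.000394, edgeR). Duoxa1, which matures an enzyme that makes hydrogen peroxide, had 0, 0.162 and 2.28 CPM in present libraries, against 0.401, 6.68 and 14.7 CPM in absent libraries (log2 fold change -3.62 ± 0.65 (SE), adjusted p = 0.000146, edgeR). Ogdhl had 0 to 1.12 CPM in present libraries, against 0.207 to 42.7 CPM in absent libraries, Grid1, a glutamate receptor family member, 0 to 1.55 CPM in present libraries, against 0 to 17.5 CPM in absent libraries, and Gprin1 0 to 0.749 CPM in present libraries, against 0.595 to 16.8 CPM in absent libraries. Krt15, a keratin of basal epithelium, had 0 to 22.8 CPM in present libraries, against 0 to 111 CPM in absent libraries, and the protocadherin Pcdhgc5 had 0 to 0.6 CPM in present libraries, against 0.312 to 73.8 CPM in absent libraries. The median of each of these genes in present libraries was at most 1.44 CPM. Cyp2b9, a cytochrome P450, had 0 to 0.155 CPM in present libraries, against 0 to 55.1 CPM in absent libraries (log2 fold change -4.65 ± 1.37 (SE), adjusted p = 0.01, edgeR, not called without lean IgG2a 5, and -8.97 without obese anti-PD-1 4). In lean libraries alone none of these genes was called. Nav3, Unc79, Gprin1, Pcdhgc5, Duoxa1 and Krt15 had adjusted p of 0.1 to 0.472 there (edgeR). Ogdhl, Grid1, Ptchd4 and Cyp2b9 did not pass the filter on low counts there. In obese libraries alone all but Krt15 and Cyp2b9 were called.

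By Spearman correlation over all 23 libraries, the genes whose level was most like that of Glycam1 were P2ry10, a receptor of lymphocytes (0.944), Btla (0.938), Prkcb, a protein kinase C of B cells (0.938), Xlr4a (0.937) and Gal3st2 (0.937). The libraries form 2 separate sets, so these values mostly describe the split. Inside the 11 present libraries alone, the B cell sum had a Spearman correlation of 0.97 with the T cell sum, 0.96 with the node stroma sum and 0.87 with the germinal center sum, all of which share the library total.

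The change from absent to present was then compared between obese mice (4 present, 9 absent) and lean mice (7 present, 3 absent). Of 19882 genes, 669 (3.36%) had a larger and 1642 (8.26%) a smaller log2 difference in obese mice (edgeR, adjusted p under 0.05), and the median over all genes was -0.31. Larger and smaller are meant with sign here and below, so a gene that fell more in obese mice has a smaller log2 difference. The balance of directions depended on scaling and on single libraries. With DESeq2 size factors 963 genes had a larger and 1132 a smaller log2 difference (median -0.18), and with log2(TPM + 1) 476 and 3820. Larger differences outnumbered smaller ones without obese anti-PD-1 1 (967 and 862), obese anti-PD-1 2 (901 and 782), obese anti-PD-1 7 (1063 and 995), obese IgG2a 1 (605 and 542), obese IgG2a 2 (1189 and 1025), obese IgG2a 3 (550 and 454), obese IgG2a 4 (885 and 813), lean IgG2a 1 (932 and 928), lean IgG2a 2 (807 and 732), lean IgG2a 3 (723 and 665) and lean IgG2a 4 (1056 and 1045). In both directions together, 2311 genes were called, against 695 without lean anti-PD-1 4 and 1325 without lean anti-PD-1 2, both lean absent libraries, 1539 without lean IgG2a 2 and 1388 without lean IgG2a 3, both lean present libraries, and 1147 without obese IgG2a 1 and 1004 without obese IgG2a 3, both obese present libraries. Fits within one diet called 4213 genes (22.8%) higher and 4001 (21.7%) lower in obese mice, and 1033 (5.98%) higher and 107 (0.619%) lower in lean mice.

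Matrix genes of fat were among those with a smaller, that is more negative, log2 difference in obese mice. In fits within one diet, Col1a1 changed by -2.81 in obese and by -0.92 in lean mice. Of 20 matrix genes, 1, the T cell gene Thy1, was called for a larger and 6 for a smaller log2 difference in obese mice. Thy1 differed by 1.45 ± 0.46 (SE), adjusted p = 0.045 (edgeR), and its call was lost without any 1 of 7 libraries. Col1a1 had 66.4, 109 and 156 CPM in obese present libraries, 208, 775 and 1397 CPM in obese absent libraries, 103, 203 and 232 CPM in lean present libraries and 177, 339 and 424 CPM in lean absent libraries (difference of the log2 changes -2.22 ± 0.56 (SE), adjusted p = 0.0161, edgeR). Col3a1 had 77, 134 and 159 CPM in obese present libraries, 224, 937 and 1579 CPM in obese absent libraries, 229, 477 and 531 CPM in lean present libraries and 440.1, 786 and 899 CPM in lean absent libraries (difference -2.29 ± 0.61 (SE), adjusted p = 0.0193, edgeR), and for Sparc the difference was -2.05 ± 0.51 (SE), adjusted p = 0.0144 (edgeR). Each collagen was lowest in obese present libraries and highest in obese absent libraries by median. The calls of Col1a1, Col3a1 and Sparc were lost without lean anti-PD-1 4 (adjusted p up to 0.0764, 0.0845 and 0.0698 over the libraries left out in turn) and without obese IgG2a 3, and that of Sparc also without obese IgG2a 1. In fits within one diet, 2 matrix genes were called higher and 13 lower in obese mice (median -1.67), and 2 higher and 5 lower in lean mice (median -0.72).

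Lep had 210.4, 404 and 963 CPM in obese present libraries, 946, 4442 and 6514 CPM in obese absent libraries, 74.3, 97.8 and 233 CPM in lean present libraries and 66.3, 294 and 346 CPM in lean absent libraries. The difference between diets was -2.27 ± 0.81 (SE), adjusted p = 0.0704 (edgeR), so it was not called. Of 16 adipocyte genes, 0 were called for a larger and 2 for a smaller log2 difference, and of 16 fatty acid synthesis genes 0 and 6. Over all genes 3.36% were called for a larger and 8.26% for a smaller one. The adipocyte count is close to that background, and no result about that list is read from it. The 2 adipocyte genes were Plin1 (-1.65 ± 0.50 (SE), adjusted p = 0.0358) and Dgat2, which makes triglyceride (-2.24 ± 0.61 (SE), adjusted p = 0.022, both edgeR), and their calls were lost without any 1 of 15 and of 5 libraries. Scd1 differed by -2.75 ± 0.67 (SE), adjusted p = 0.0126 (edgeR), and Fasn by -2.49 ± 0.77 (SE), adjusted p = 0.0394 (edgeR). The call of Scd1 was lost without lean anti-PD-1 4, and that of Fasn without any 1 of 16 libraries. Within obese mice 12 adipocyte genes were called lower (median -1.35), and within lean mice 0 were (median -0.65). Lpl had 1118, 1834 and 3070.3 CPM in obese present libraries, 5280.0, 14397 and 29385 CPM in obese absent libraries, 2633, 4005 and 7544 CPM in lean present libraries and 8074, 8622 and 10027 CPM in lean absent libraries, and its present libraries lay below the absent libraries within each diet.

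**Figure D5:**
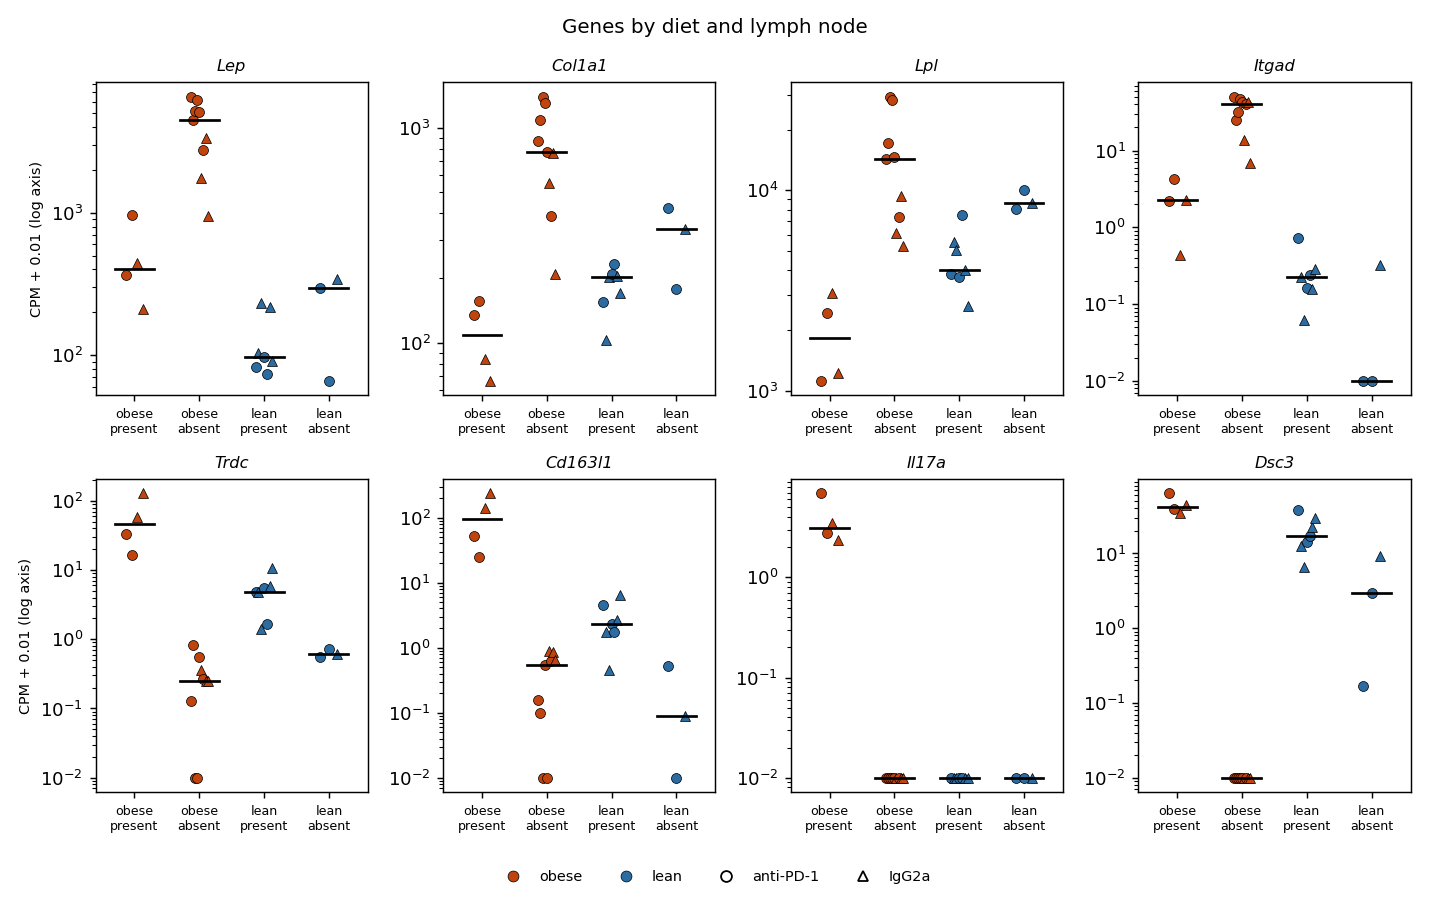
CPM plus 0.01 (log axis) of 8 genes in each library by diet and node status, with medians as lines and antibody as symbol. Il17a was counted in the 4 obese present libraries and had 0 counts in the other 19, and Dsc3 had 0 counts in the 9 obese absent libraries.

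The largest differences by diet in the upward direction, among called genes with a mean of at least 4 CPM, were Dsc3, Dapl1, Saa3, Coch and Trdc. Dsc3, a desmosomal cadherin, had 34.5, 41.8 and 63.6 CPM in obese present libraries, 0 counts in all 9 obese absent libraries, 6.51, 17 and 38.4 CPM in lean present libraries and 0.159, 2.91 and 9.37 CPM in lean absent libraries. The difference was called (adjusted p = 0.00165, edgeR), and its fitted size depends on the zero counts. Dapl1, a protein known from epithelium, had 11.1, 14.4 and 16 CPM in obese present libraries, 0, 0 and 0.101 CPM in obese absent libraries, 3.56, 8.67 and 18.4 CPM in lean present libraries and 0, 1.81 and 2.14 CPM in lean absent libraries (difference 6.94 ± 1.19 (SE), adjusted p = 0.00258, edgeR). Saa3, a serum amyloid of inflamed tissue, had 4.12 to 74 CPM in obese present libraries, 0.384 to 4.11 CPM in obese absent, 0.0656 to 2.59 CPM in lean present and 0.986 to 4.9 CPM in lean absent libraries (difference 5.25 ± 1.23 (SE), adjusted p = 0.0109, edgeR). Coch, cochlin, known from the inner ear and from follicular dendritic cells, had 5.47 to 44.9 CPM in obese present, 0.0137 to 0.648 CPM in obese absent, 1.01 to 10.4 CPM in lean present and 0 to 2.23 CPM in lean absent libraries (difference 4.78 ± 1.27 (SE), adjusted p = 0.0201, edgeR). The calls of Saa3 and Coch were lost without lean anti-PD-1 4, where Coch was at 1.82, and without obese IgG2a 1. Those of Dsc3, Dapl1 and Trdc held with each library left out, and that of Trdc was lost without the 6 libraries with high liver or muscle genes (adjusted p = 0.0993, edgeR). The 6 were obese IgG2a 5, with the highest liver sum, and 5 with the highest muscle sums. These 5 were obese IgG2a 3, lean IgG2a 1 and 2, and lean anti-PD-1 1 and 2. Lean IgG2a 5 was kept, with a liver sum of 4534 CPM. Fewer libraries also make calls harder to reach, and the part of this in lost calls was not tested.

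In the downward direction the genes were Erg, Cacna1e, Itgad, Hephl1 and Oxtr. Itgad, the integrin αD of tissue macrophages, had 0.431, 2.25 and 4.3 CPM in obese present libraries, 6.87, 40.4 and 50.6 CPM in obese absent libraries, 0.0529, 0.218 and 0.725 CPM in lean present libraries and 0, 0 and 0.311 CPM in lean absent libraries (difference -4.88 ± 1.21 (SE), adjusted p = 0.0141, edgeR), so its level in obese mice was higher without a node, and it was near 0 in lean mice. Its call was lost without lean anti-PD-1 4, and its value was -11.46 without lean IgG2a 5. Oxtr, the oxytocin receptor, had 3.68, 10.1 and 32.6 CPM in obese present libraries, 71.8, 201 and 556 CPM in obese absent libraries, 32.4, 160.0 and 240.3 CPM in lean present libraries and 65.4, 115 and 155 CPM in lean absent libraries (difference -4.63 ± 0.92 (SE), adjusted p = 0.00476, edgeR). Cacna1e, a calcium channel, had 16, 26.3 and 62.3 CPM in obese present libraries, 38.7, 70.3 and 168 CPM in obese absent libraries, 2.5, 13.8 and 24.1 CPM in lean present libraries and 0.0321, 0.7 and 1.84 CPM in lean absent libraries (difference -5.37 ± 1.00 (SE), adjusted p = 0.00372, edgeR). The calls of Oxtr and Cacna1e held with each library left out. Erg, an endothelial transcription factor, differed by -5.95 ± 1.77 (SE), adjusted p = 0.0335 (edgeR) and its call was lost without any 1 of 11 libraries, and its value was -9.98 without lean IgG2a 5. Hephl1, a copper oxidase, differed by -4.72 ± 1.11 (SE), adjusted p = 0.0111 (edgeR) and had 0 to 0.109 CPM in obese present, 0.362 to 4.18 CPM in obese absent, 7.46 to 27.9 CPM in lean present and 16 to 30.2 CPM in lean absent libraries. Its direction turned on the log2(TPM + 1) scale (0.11), and its call was lost without the 6 libraries with high liver or muscle genes (adjusted p = 0.0674, edgeR).

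Zbtb16 and Sfrp5 were named after their values were seen. Zbtb16, a transcription factor that fat and innate-like T cells express, had 5.86, 14.6 and 19.4 CPM in obese present libraries, 41.2, 123 and 186 CPM in obese absent libraries, 8.72, 15.3 and 48.6 CPM in lean present libraries and 18.2, 29.7 and 52 CPM in lean absent libraries. Sfrp5, a Wnt inhibitor that fat cells secrete, had 57.6, 97.5 and 341 CPM in obese present libraries, against 391, 902 and 1026 CPM in obese absent libraries. Nav3 differed by -3.51 ± 0.92 (SE), adjusted p = 0.0181 (edgeR) and Cdh5 by -1.90 ± 0.51 (SE), adjusted p = 0.0208 (edgeR), and both calls were lost without lean anti-PD-1 4 and without obese IgG2a 3, that of Cdh5 also without any 1 of 5 others. Of 10 MHC class I genes, 5 were called for a larger and 0 for a smaller log2 difference. They were H2-K1 (1.12), the peptide transporter chain Tap2 (1.09) and the immunoproteasome subunits Psmb8, Psmb9 (1.64) and Psmb10 (1.16). The calls of H2-K1 and Psmb10 were lost without lean anti-PD-1 4, and that of Psmb10 also without lean anti-PD-1 2. Without the 6 libraries with high liver or muscle genes, Psmb8 was the 1 of the 5 still called (adjusted p = 0.0215, edgeR). Psmb8, the immunoproteasome subunit that cuts peptides for class I, had 312, 387 and 459.6 CPM in obese present libraries, 53.6, 60.2 and 98.4 CPM in obese absent libraries, 132, 164 and 271 CPM in lean present libraries and 81.8, 123 and 142 CPM in lean absent libraries (difference 1.89 ± 0.29 (SE), adjusted p = 0.0021, edgeR). By median its level was lower in obese than lean absent libraries and higher in obese than lean present libraries, without overlap in the last pair.

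The change of node genes with node status was also set against diet. Of 18 node stroma genes 2, of 15 B cell genes 1 and of 20 T cell genes 4 were called for a larger log2 difference in obese mice, and none for a smaller one, against 3.36% and 8.26% of all genes. The first 2 counts are within 2 genes of that background, and no result about these lists is read from them. Cxcl13 had 233, 275 and 612 CPM in obese present and 34.6, 58.4 and 112 CPM in lean present libraries (difference of the changes 2.91 ± 0.74 (SE), adjusted p = 0.016, edgeR). For Ccl21a the difference was 3.68 ± 1.04 (SE), adjusted p = 0.0275 and for Cd79a 2.26 ± 0.64 (SE), adjusted p = 0.0266 (both edgeR). These 3 calls were lost without lean anti-PD-1 2, that of Ccl21a also without lean anti-PD-1 4 and obese IgG2a 3, and that of Cd79a also without lean IgG2a 5. The 4 T cell genes were the receptor chains Trac (2.23) and Trbc2 (2.49), the adaptor Lat (2.48) and the factor Bcl11b (2.62). Without lean anti-PD-1 4, Lat was the 1 of the 4 still called, and without the 6 libraries with high liver or muscle genes none of the 4 was (adjusted p = 0.0582 to 0.158, edgeR). In the 11 present libraries, obese against lean mice gave 1900 (9.18%) higher and 2323 (11.2%) lower calls of 20704 genes tested (edgeR, antibody as covariate). Scaled by library totals alone, 3342 were called higher and 1684 lower (median over all genes 0.25, against 0.028), and with log2(TPM + 1) 2110 and 1723, so the balance of directions turned. Together the 4223 calls were 2729 without obese anti-PD-1 3, 2458 without obese IgG2a 1 and 1811 without obese IgG2a 3. Node stroma genes were called higher for 11 and lower for 1 (Ltbr) of 18, B cell genes higher for 8 of 15 and class II genes higher for 9 of 10. Madcam1 had 8.75, 16.9 and 27.3 CPM in obese and 1.02, 1.79 and 6.49 CPM in lean present libraries, without overlap (log2 fold change 2.69 ± 0.32 (SE), adjusted p = 0.000151, edgeR). Adding the B cell sum as a covariate left 453 calls, against 4223 without it.

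Besides Trdc, 4 genes known from γδ T cells or from interleukin 17 signaling, Cd163l1, Il17a, Il17f and Il23r, were picked after their values were seen. Their levels are given here as a description. Of these 4, only Cd163l1 has a test printed, among the results flagged below, and it is not read as support. Trdc, the constant region of the δ receptor chain, had 33.2 and 16.4 CPM in the obese anti-PD-1 libraries 3 and 4, and 59.2 and 128 CPM in the obese IgG2a libraries 1 and 3. The 7 lean present libraries had 1.39 to 10.5 CPM, and the 12 absent libraries at most 0.829 CPM. The change of Trdc with node status differed between diets by 4.66 ± 1.02 (SE), adjusted p = 0.00804 (edgeR). Cd163l1, the receptor SCART1 of such γδ T cells, had 52 and 24.5 CPM in the obese anti-PD-1 libraries 3 and 4, and 139 and 235 CPM in the obese IgG2a libraries 1 and 3, against 0.437 to 6.5 CPM in lean present libraries. Il17a, the cytokine itself, had 6.89 and 2.79 CPM in the obese anti-PD-1 libraries 3 and 4, and 3.46 and 2.36 CPM in the obese IgG2a libraries 1 and 3. These values rest on 932 reads, and Il17a had 0 counts in all the other 19 libraries, so it was at least 560-fold higher in obese than in lean present libraries and passed the filter on low counts through the obese present libraries alone. Il17f, its relative, had 8.69 and 6.04 CPM in the obese anti-PD-1 libraries 3 and 4, and 1.08 and 1.33 CPM in the obese IgG2a libraries 1 and 3, against 0 to 0.0918 CPM in lean present libraries. Il23r, the receptor that sustains these cells, had 2.03 to 4.93 CPM in obese and 0.0529 to 0.608 CPM in lean present libraries. Obese present libraries lay above lean present libraries for each of these 5 genes, and by library totals the B cell sum was also higher in all 4 of them. The neutrophil genes S100a8 and S100a9 rose in obese present libraries, with 4.67 to 40.3 and 9.31 to 57.8 CPM, against 0.0343 to 1.16 and 0.275 to 2.28 CPM in lean present libraries (log2 fold change 5.06 and 5.06).

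Anti-PD-1 against IgG2a gave few differences with regard to the node. In the 11 present libraries (5 anti-PD-1, 6 IgG2a), 0 of 20704 genes were called by edgeR with diet as covariate (687 at an unadjusted p under 0.05, smallest adjusted p 0.0696), and 0 by DESeq2, by voom with library quality weights and by limma-trend on log2(TPM + 1). The smallest adjusted p belonged to a predicted gene without a common name. Among genes with a common name and a mean of at least 4 CPM, those of smallest p had lower values for S100a9 (-1.90), Cited1 (-1.80) and Tm2d3 (-0.54) and higher values for Lynx1 (0.56), Glcci1 (0.84) and Cpt1a (0.44), all log2 fold changes at an adjusted p of 0.957. Pdcd1 had an adjusted p of 0.957 and Cd274 of 0.998 there. The change with node status differed between antibodies for 49 genes (0.246%), all with a larger log2 difference under anti-PD-1 in edgeR over all libraries, while DESeq2 called 302 larger and 64 smaller and voom with library quality weights 656 and 105. Among the 49 were 6 of 17 liver genes and 5 of 18 proliferation genes. By the same limits on name and level, the largest of these differences were of the liver genes Ttr, a thyroid hormone carrier (15.32 ± 3.00 (SE), adjusted p = 0.0399), Cyp3a11, a cytochrome P450 (15.24 ± 3.12 (SE), adjusted p = 0.0436), Gc, the vitamin D carrier (14.43 ± 2.86 (SE), adjusted p = 0.0399), Cps1 of the urea cycle (14.25 ± 2.85 (SE), adjusted p = 0.0429) and Uox, urate oxidase (13.81 ± 2.72 (SE), adjusted p = 0.0399, all edgeR). The proliferation genes were Top2a, Ccna2, Bub1, Cenpf and Tpx2 (3.80 to 4.50). In the other direction, where edgeR called 0 genes over all libraries, H1fx, Tmem132a and Tysnd1 had the smallest p under these limits (-1.52, -1.14 and -0.88, adjusted p = 0.0676 to 0.0978). Without obese IgG2a 5, the library with the highest liver and proliferation sums, 0 genes were called by edgeR (1197 at an unadjusted p under 0.05), and 0 were also called without any 1 of 13 other libraries. The count was 12 without lean anti-PD-1 2, 21 without obese anti-PD-1 4, 368 without obese IgG2a 4 and 479 without lean IgG2a 5 (467 larger and 12 smaller).

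The share of libraries with a node was lower in obese mice, short of the 0.05 threshold. A node was present in 4 of 13 obese and 7 of 10 lean libraries (p = 0.0995, two-sided Fisher's exact test), and in 5 of 13 anti-PD-1 and 6 of 10 IgG2a libraries (p = 0.414, same test). Where it was present, its genes took more counts in obese mice. By library totals the B cell sum had 3158, 3592 and 5816 CPM in obese present libraries, against 577, 1258 and 3148 CPM in lean present libraries. These did not overlap, but the lowest obese and highest lean values were nearly equal. The difference of the means was 1.63 on the log2 scale (p = 0.00606, two-sided exact permutation test, the smallest p that 4 against 7 libraries allow). The T cell sum differed by 1.25 and the node stroma sum without Glycam1 by 1.44, each with the same p. These 3 sums move together across the libraries and are not independent. With TMM-scaled CPM the B cell sum differed by 1.39 between diets (p = 0.0182, two-sided exact permutation test), which is above the smallest p allowed. Between anti-PD-1 and IgG2a the B cell sum differed by 0.49 (p = 0.476, two-sided exact permutation test), with 840 to 5816 CPM under anti-PD-1 and 577 to 3871 CPM under IgG2a. The amount of fat tissue cut beside each node is not given in the labels, and its part in these values was not tested.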

How the data were processed

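RNA of 23 tumor-adjacent mammary fat pads was measured in poly(A)-enriched, non-directional libraries, from samples with an RNA integrity number above 5, per the labels' protocols. The authors deposited, for 115088 transcripts, expected counts (estimated read counts, not normalized) and TPM (abundances scaled to the same total in each library). Per the submitters' processing notes, edgeR, limma and GRCm38 were used, and no source used here gives the program that estimated the counts.

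Of the transcripts, 114200 matched GENCODE M21, and their counts were summed to 47311 genes and rounded, and CPM were taken over all of them. Without strand, overlapping and antisense genes cannot be told apart. Genes passing filterByExpr (minimum count 10) were scaled by TMM and tested with edgeR 4.0.16 in R 4.3.3 (robust quasi-likelihood, two-sided, Benjamini-Hochberg adjustment, called under 0.05). Single values were tested with scipy 1.17.1 (exact permutation and Fisher's exact tests). Bounds and shares cover counting error only. The labels do not describe separate cultures or litters, so p-values measure the spread between these mice.

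The rule for the genes named took up to 3 members of highest CPM per list, all node stroma genes and the largest called changes outside the lists, and the text describes a part of them. A few listed genes are not reported here. The libraries, lists and members were chosen with earlier results of these data known. Cd163l1, Il17a, Il17f, Il23r, Zbtb16 and Sfrp5 were added after their values were seen. Alternatives were DESeq2 1.42.0, voom with limma 3.58.1, other scaling and filters, log2(TPM + 1), no covariate, one diet alone and each library left out in turn.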

Additional observations from a re-analysis of the deposited data

Results flagged for a closer look

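Among the 6 obese anti-PD-1 libraries without a node, obese anti-PD-1 8 was flagged in 3 list sums by Dixon's test, out of 60 sets tested (chance flags about 1 in 20). The sets were the 30 lists in these libraries and in lean IgG2a libraries with a node, as the other subgroups were too small. Chance alone would give about as many flags, so obese anti-PD-1 8 is not read as set apart. Its node stroma sum was 308 CPM, against 432 to 509 CPM in the other 5 (gap over range 0.67). Its matrix sum was 5761 CPM, against 8550 to 9694 CPM in the other 5 (0.759). Its nerve sum was 825 CPM, against 161 to 277 CPM in the other 5 (0.668).

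The present against absent change differed between obese and lean mice for 2311 genes and between anti-PD-1 and IgG2a mice for 49 genes, by the test of the difference itself (edgeR). Of the genes named, the log2 difference of the changes, obese minus lean, was 12.08 for Dsc3 (not a bound, since 9 libraries have no counts), 6.94 for Dapl1, 5.25 for Saa3, 4.78 for Coch (1.82 without lean anti-PD-1 4), 4.66 for Trdc and 4.32 for Cd163l1. Cd163l1, picked after its values were seen, was at 1.55 without lean anti-PD-1 2 (adjusted p = 0.652, edgeR) and at 0.88 without the 6 libraries with high liver or muscle genes (adjusted p = 0.820, edgeR). For genes of the node, T cells and MHC class I it was 3.68 for Ccl21a, 2.91 for Cxcl13, 2.26 for Cd79a, 2.62 for Bcl11b, 2.49 for Trbc2, 2.48 for Lat, 2.23 for Trac, 1.89 for Psmb8, 1.64 for Psmb9, 1.45 for Thy1, 1.16 for Psmb10, 1.12 for H2-K1 and 1.09 for Tap2. It was negative for Erg (-5.95), Cacna1e (-5.37), Itgad (-4.88), Hephl1 (-4.72), Oxtr (-4.63), Nav3 (-3.51), Scd1 (-2.75), Zbtb16 (-2.69), Fasn (-2.49), Col3a1 (-2.29), Col1a1 (-2.22), Dgat2 (-2.24), Sparc (-2.05), Cdh5 (-1.90) and Plin1 (-1.65). Calls of Dsc3, Dapl1, Trdc, Cacna1e, Oxtr, Psmb8, Psmb9, Tap2, Lat, Hephl1 and Zbtb16 held with each of the 23 libraries left out, and without lean anti-PD-1 4 the calls of 14 of these 34 genes held. Without the 6 libraries with high liver or muscle genes, 11 of the 34 were still called, namely Cacna1e, Cd79a, Col1a1, Dapl1, Dsc3, Itgad, Oxtr, Psmb8, Saa3, Sparc and Zbtb16. The 34 include Cd163l1 and Zbtb16, which were picked after their values were seen, so their calls are no support. The calls of Trdc, Psmb9, Tap2, Lat and Hephl1 were thus lost without the 6 libraries (adjusted p = 0.0993, 0.0841, 0.142, 0.0582 and 0.0674, edgeR).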

How the results depend on the processing

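Of the recomputed counts and single tests, 193 stayed close to the value first given and 45 moved. In lean libraries alone, 1140 genes were called between present and absent. For the difference by diet the count was 4296 with log2(TPM + 1) and 639 without the 6 libraries with high liver or muscle genes. For the difference by antibody it was 366 with DESeq2, 761 with voom and library quality weights, 7 without a filter, 23 with at least 1 CPM in 5 libraries, and 0 with log2(TPM + 1), without the 6 libraries or without obese IgG2a 2 and 5. For anti-PD-1 against IgG2a in present libraries, 1 gene was called without a filter and 1 with the B cell sum as covariate. For obese against lean in present libraries, 453 were called with that covariate and 1730 without the 6 libraries. The settings without 2 or 6 libraries were chosen after seeing the data, and the cause of these shifts was not tested.

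With each library left out in turn, present against absent gave 7012 to 8835 calls, the difference by diet 695 to 2611, the difference by antibody 0 to 479, the antibody comparison 0 to 1 and obese against lean 1811 to 5185. The share of libraries with a node differed by -47.0 to -35.9 percentage points between diets (Fisher's exact p = 0.0805 to 0.198) and by -28.2 to -17.1 between antibodies (p = 0.387 to 0.670). The B cell sum differed by 1.44 to 1.85 between diets (exact permutation p = 0.00952 to 0.0167) and by 0.15 to 0.85 between antibodies (p = 0.248 to 0.810).

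Directions turned among single genes: Bst2 (-0.022), Mertk (0.20), Mmrn1 (-0.25) and Myh7 (-2.64) in lean libraries alone, Fasn (0.73), Cd44 (-0.058), Top2a (-0.44), Ndufs1 (0.20), Atp5b (0.022), Cyp2e1 (0.23) and Myh7 (-0.84) without the group covariate, and Hephl1 (0.11) and Myh7 (-0.14) with log2(TPM + 1). The difference by antibody turned for Gc without obese IgG2a 2 and 5 (-1.46). For single genes, 7631 recomputed values kept side and direction, 621 lost their call and 55 gained one. Of the recomputed list medians, 817 stayed close and 23 moved by more than the spread between libraries. The muscle median was -1.03 without obese IgG2a 3, against 1.12 with all libraries, and the tumor-like median was 0.66 in lean libraries alone, against -0.69.

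Limits are the small groups behind the difference by diet, with 3 lean absent and 4 obese present libraries, and the unequal node shares of the 4 groups. The labels do not give how much node and fat entered each library, so node size and sampling cannot be told apart. No paired analysis was possible because the replicate numbers follow accession order and name no shared animal, litter or day.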

Other observations

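Within present libraries, the ratio of Glycam1 to Cd79a (CPM) was 0.570 to 1.12 in the 5 anti-PD-1 libraries and 1.11 to 2.07 in the 6 IgG2a libraries, a log2 difference of -1.0 (p = 0.00866, two-sided exact permutation test, adjusted p = 0.0693 over 8 ratios). The ratio of Madcam1 to Cd79a was 0.00298 to 0.0113 in anti-PD-1 and 0.00864 to 0.0337 in IgG2a libraries (p = 0.0216, exact permutation test, adjusted p = 0.0866). Neither passed the correction, and these ratios were chosen after the values were seen. Between obese and lean mice the first ratio was 0.570 to 2.07 in obese and 0.766 to 1.89 in lean libraries (p = 0.830, exact permutation test).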
